A study of Mus musculus with 2 samples.

Results

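The genes described here encode enzymes that remove superoxide and peroxides, keep protein thiols reduced, make and use glutathione, and supply the NADPH that drives these reactions, together with the NRF2 and KEAP1 regulators. They were chosen by a rule on gene symbols that uses no measured difference, from the probes that the authors' value table holds and the platform annotation names. The symbols matched 59 of 9762 named probes, for 42 of 7939 named genes. A probe was called detected at a detection p-value under 0.01, which left 55 probes detected on at least 1 array. Where several named probes read 1 gene, the one with the highest mean signal stood for it. By those probes, 41 of the 42 genes were detected and counted, of 6702 counted genes in all. All 41 were detected on both arrays. The one left out was Gsta2, a glutathione transferase, whose detection p-values were 0.0146 and 0.0231. Nearest to the threshold among those kept was Nfe2l2, at 0.0049 and 0.0085. Other genes of these families had no named probe in the table (catalase among them) and were not analysed here. All 11090 probes of that table had a detection p-value of 0.0499 or lower on at least 1 array. Genes missing from it may be undetected or not measured, and these were not told apart. The high share of detected genes among the 42 follows in part from that table.

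RNA came from SN4741 cells, an immortalized line of mouse dopaminergic neuronal cells kept at 33 C. The control array carried cells at 0 h and the second array carried cells after 12 h of Oxi-beta overexpression, each as RNA pooled from 3 samples. The way Oxi-beta was introduced and any empty construct in the control are not given in the sources used here, and no control array of 12 h was among the samples, so hours in culture and overexpression cannot be told apart. With 1 array in each group, no difference has a test or a replicate error, and all differences below are descriptions of these 2 arrays. Differences are given as overexpression minus control on the log2 scale of background-corrected, quantile-normalized signals. Signals are given as deposited, background included. The median ratio of deposited signals, overexpression to control, was 0.948 over 8006 named probes detected on at least 1 array. It was 0.943 over the 41 counted genes described here. Quantile normalization puts both arrays on a common scale, so a positive difference can go with a lower deposited signal.

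In textbook terms, superoxide dismutases turn superoxide into hydrogen peroxide, which glutathione peroxidases and peroxiredoxins then reduce. Glutathione and thioredoxin give the electrons and are returned to their reduced forms by reductases that use NADPH. KEAP1 holds the transcription factor NRF2, the product of Nfe2l2, at a low level, and oxidants release NRF2 to switch on many of these genes through antioxidant response elements. Dopamine neurons are a usual setting for work on this system because dopamine itself oxidizes readily. The name Oxi-beta is used for Tnfaip8l1, a gene described as regulated by oxidative stress, although the labels do not give that symbol.

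Both arrays detected a like share of probes, 8814 and 8799 of 24613, and the lowest detected signals were 201 (control) and 196 (overexpression). Of 21 genes listed as markers of dopamine neurons, 6 were counted (En1, Foxa2, Gch1, Nr4a2, Qdpr and Spr). Gch1, Qdpr and Spr are tetrahydrobiopterin enzymes and do not by themselves mark dopamine neurons. Th, Slc6a3 and Slc18a2, which define the dopamine phenotype, had no named probe in the authors' table. Whether they were undetected or not measured was not told apart. All 6 had positive differences, from 0.05 for Spr to 0.24 for Nr4a2, with a median of 0.12. Foxa2, Gch1 and Nr4a2 were dim, with control and overexpression signals of 255 and 257, 288 and 296, and 274 and 295. Foxa2 fell as low as 0.007 under the other scalings, and Spr turned to -0.06 under median centring. Of 8 counted fibroblast and mesenchymal markers, 7 had negative differences, with a median of -0.10. The highest and lowest differences of these 8 were Tagln at 0.05 and Pdgfrb at -0.40. Their control signals ran from 465 for Tagln to 44580 for Vim, against 255 for Foxa2 to 2226 for Qdpr in the dopamine list. The pan-neuronal list went both ways, with 4 of 6 counted genes positive and a median of 0.14. Syn1 was at 0.17 and Ncam1 at -0.39 among those detected on both arrays, and Nefm and Tubb3, with fitted differences above 0.32, were not well above background in the control. In the astrocyte list 3 of 4 were positive with a median of 0.05, Clu at 0.18 and Gja1 at 0.002, and Slc1a3, with a fitted difference below -0.32, was not well above background after overexpression. Nefm, Tubb3 and Slc1a3 were named after their values were seen. Of oligodendrocyte and myeloid markers, 1 gene each was counted, Cnp at 0.26 and Cd14 at 0.22. The part of these markers in the values below was not tested.

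As a group the antioxidant genes had a median close to that of all genes. Of the 41, 21 had a positive and 20 a negative normalized difference, with a median of 0.01. The median was -0.004 over all 6702 counted genes, of which 48.6% were positive. By deposited signals, 29 of the 41 were lower on the overexpression array and 12 were not. The central 50% of the members lay between -0.11 and 0.10, and that of all counted genes between -0.09 and 0.09. The lowest member stood at -0.33 and the highest at 0.27. A log2 difference of 0.32 was used as a line for description. At it 0 members were higher and 1 was lower, where 2.7% and 2.83% of all counted genes passed in those directions. Among counted genes brighter than the median, which held 27 of the 41 members, the shares were 0.537% higher and 0.746% lower. At 1.5-fold, 0 members passed in either direction, against 0.582% higher and 0.433% lower of all counted genes, and 0.209% and 0.0298% of the brighter ones. With median centring in place of quantile normalization, 1.39% of all counted genes were higher and 7.58% lower at the 0.32 line, the median of all genes moved to -0.10, and the members split into 11 positive and 30 negative. The members' median then lay 0.006 above that of all genes, against 0.013 above it with quantile normalization.

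**Figure D1:**
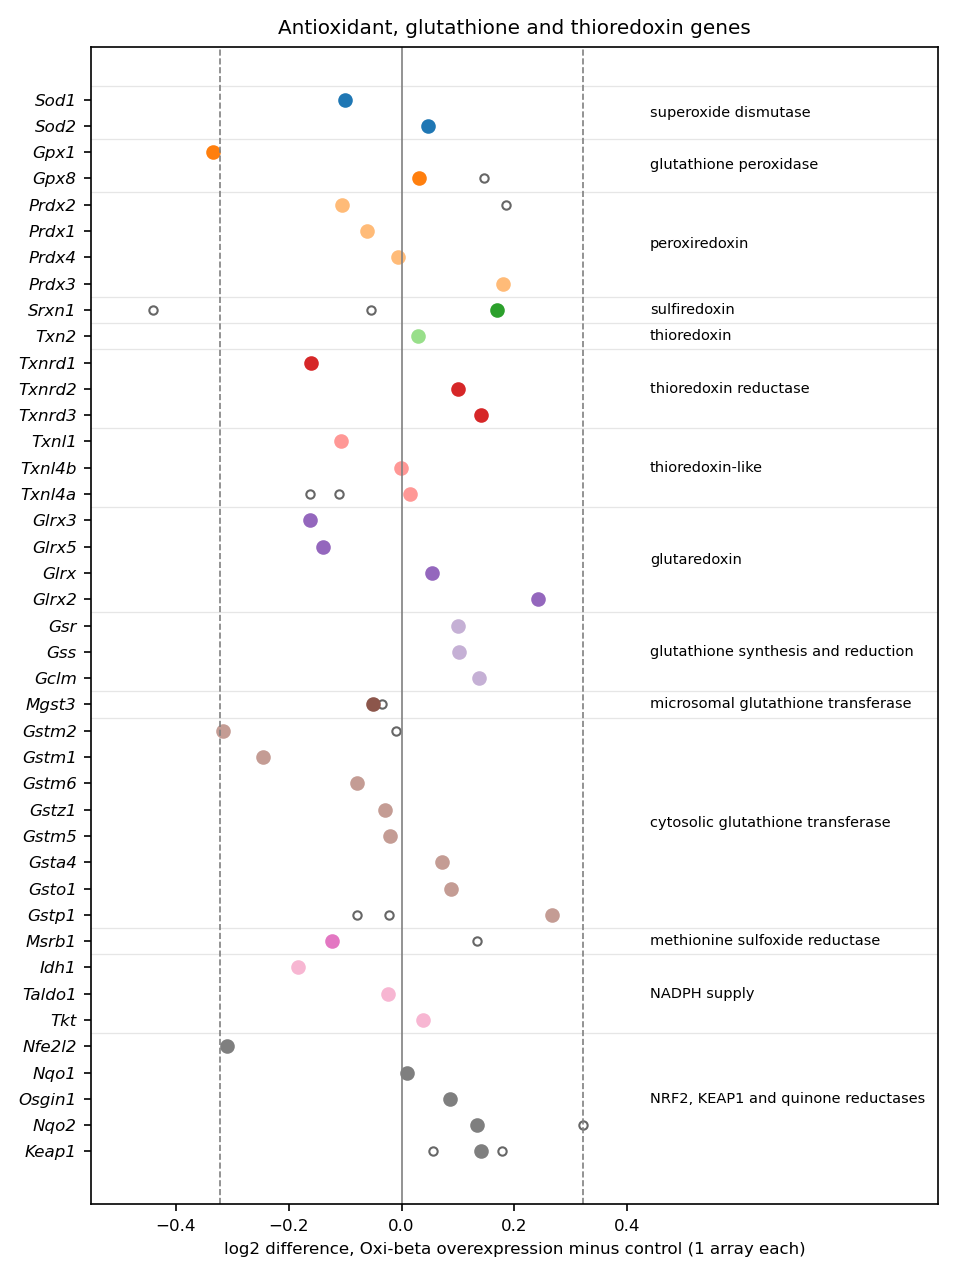
Log2 difference (overexpression minus control, 1 array each) of the 41 counted genes, ordered by family. Filled points are each gene's probe of highest mean signal, open points its other detected probes, and dashed lines mark 0.32 and -0.32. Gpx1 at -0.33 is the only filled point beyond a dashed line, and the filled points of most families lie on both sides of 0.

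**Figure D2:**
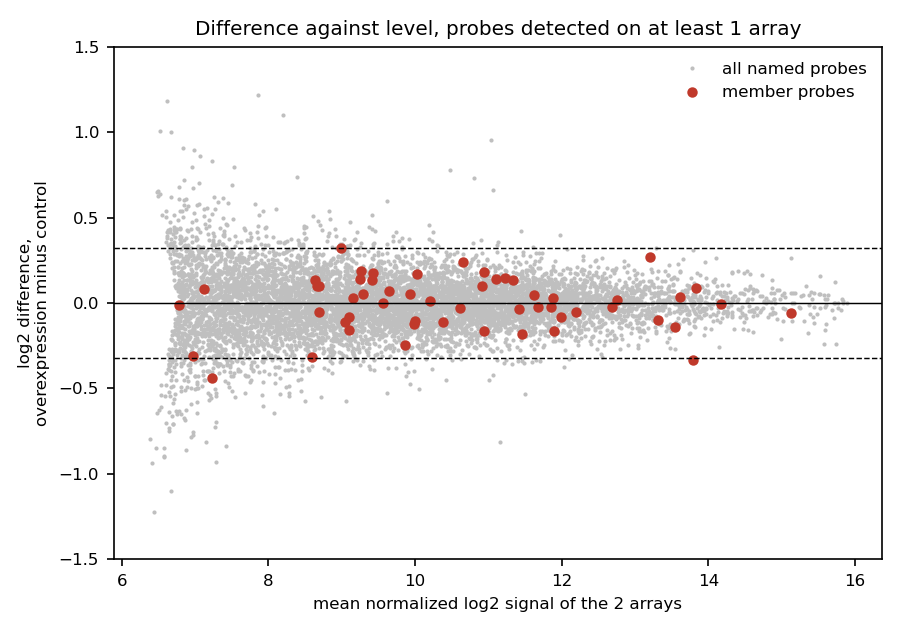
Log2 difference (overexpression minus control) against the mean normalized log2 signal of both arrays, for 8006 named probes detected on at least 1 array (grey) and the 55 member probes (red). Dashed lines mark 0.32 and -0.32, and 15 grey probes lie outside the drawn range. The grey cloud narrows as the level increases, and Gpx1 lies below it at a bright level.

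By each gene's brightest probe, enzymes that handle superoxide and peroxides gave the one difference past the 0.32 line. Gpx1, the selenium-dependent glutathione peroxidase that reduces hydrogen peroxide in the cytosol and mitochondria, had deposited signals of 16318 (control) and 12562 (overexpression), the order kept for every pair of signals below. Its normalized difference was -0.33, or 1.26-fold lower, and stayed between -0.39 and -0.33 under the other scalings. It was read by 1 probe, so no further probe could be set beside it. Of the 244 other counted genes whose mean normalized signal lay within 0.5 log2 units of that of Gpx1, 0 had a difference as low, and the central 95% of them ran from -0.18 to 0.19. This setting against genes of like brightness was added after the values were seen.

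Gpx8, a peroxidase of the endoplasmic reticulum membrane that has no selenocysteine, gave 0.03 by its brightest probe, at signals of 3904 and 3793, and 0.15 by its second, at 2429 and 2548. The first value turned to -0.05 under median centring, and the second stayed positive. Sod1, the copper-zinc dismutase of the cytosol, had signals of 10945 and 9657 and a difference of -0.10. Sod2, the manganese enzyme of mitochondria, had signals of 3277 and 3188 and a difference of 0.05, which median centring turned to -0.05.

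The 4 peroxiredoxins, thiol peroxidases of different compartments, did not move together. Prdx3, the mitochondrial form, had signals of 2001 and 2122 and a difference of 0.18. Prdx1, an abundant cytosolic form, had signals of 37223 and 35107 and a difference of -0.06. Prdx4, the form of the secretory pathway, stood at -0.007 with signals of 19154 and 17959. The brightest probe of Prdx2, a second cytosolic form, gave -0.11 (1192 and 1038), and its other probe gave 0.19 (684 and 720), so the direction of Prdx2 was not settled by its probes. Srxn1, sulfiredoxin, which rescues overoxidized peroxiredoxins and is a standard NRF2 target, was also not settled. Its brightest probe gave 0.17 at signals of 1115 and 1159, the second -0.05 at 526 and 482, and the dimmest -0.44 at 270 and 216. The dimmest of these lay near the lowest detected signal.

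In the thioredoxin system the cytosolic and the other reductases lay on opposite sides of 0. Txnrd1, the cytosolic thioredoxin reductase and an NRF2 target, had signals of 691 and 592 and a difference of -0.16, with -0.27 to -0.14 under the other scalings. Txnrd2, the mitochondrial reductase, had signals of 502 and 502 and a difference of 0.10, which median centring turned to -0.01. Txnrd3, a reductase that also acts on glutathione, had signals of 690 and 707 and a difference of 0.14. Txn2, the mitochondrial thioredoxin, stood at 0.03 with signals of 672 and 641, and at -0.09 under median centring. All 3 reductases are selenoproteins.

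The thioredoxin-like genes are related to thioredoxin by fold, and Txnl4a and Txnl4b are known as parts of the splicing machinery and not as redox enzymes. Txnl1, a cytosolic protein that binds proteasomes, had signals of 1514 and 1335 and a difference of -0.11. Txnl4b stood at -0.0004. The brightest of 3 Txnl4a probes gave 0.02 (7150 and 6866), while the others gave -0.16 (4206 and 3597) and -0.11 (658 and 582).

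Glutaredoxins use glutathione to reduce disulfides or carry iron-sulfur clusters. Glrx2, which has a mitochondrial form, had signals of 1611 and 1778 and a difference of 0.24, with 0.14 to 0.24 under the other scalings. Among 1153 genes of like brightness 2.78% were as high or higher. Glrx3 and Glrx5, which serve iron-sulfur cluster handling, were at -0.16 (2238 and 1889) and -0.14 (12857 and 11255). The cytosolic Glrx was at 0.05, with signals of 722 and 703, and at -0.05 under median centring.

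The 3 counted genes of glutathione synthesis and reduction had similar positive differences, all small. Gclm, the regulatory subunit of glutamate-cysteine ligase and a standard NRF2 target, had signals of 2620 and 2724 and a difference of 0.14. Gss, glutathione synthetase, had signals of 493 and 495 and a difference of 0.10. Gsr, glutathione reductase, had signals of 2021 and 2036 and a difference of 0.10. Under median centring these became 0.05 for Gclm, -0.005 for Gss and 0.001 for Gsr. A second Gss probe was not well above background on either array.

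Glutathione transferases, which attach glutathione to reactive compounds, spread widest. The 2 lowest were of the mu class. Gstm2 had signals of 537 and 427 and a difference of -0.32, just short of the line, with -0.41 to -0.26 under the other scalings. Gstm1 had signals of 1144 and 918 and a difference of -0.25, with -0.36 to -0.22. The other mu genes were nearer to 0, Gstm6 at -0.08 (675 and 606) and Gstm5 at -0.02 (3491 and 3241). All 4 lie on mouse chromosome 3 and are similar in sequence, so a probe may read more than 1 of them. A second Gstm2 probe, detected on the control array only at a signal of 202 against 196, was at -0.01.

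Gstp1, the pi class enzyme, was the highest member by its brightest probe, at 0.27 with signals of 8869 and 10190. Of 373 genes of like brightness, 1 was as high or higher. Its other probes read lower on the overexpression array, at -0.08 (4389 and 3968) and -0.02 (3926 and 3672), both with bright signals, so the 3 probes of the gene did not give 1 direction. Mouse has near-identical pi class genes, and which of them each probe reads was not examined. Gsto1, the omega class enzyme, was at 0.09 (14607 and 14967), Gsta4 at 0.07 (901 and 885) and Gstz1 at -0.03 (1725 and 1596). The value of Gsta4 turned to -0.04 under median centring. Both probes of Mgst3, a microsomal transferase, gave close values, -0.05 (4957 and 4557) and -0.04 (2957 and 2713).

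Msrb1, a selenoprotein that repairs oxidized methionine, was read in opposite directions by its probes, -0.12 (1186 and 1024) and 0.13 (481 and 490). Of the enzymes that supply NADPH, Idh1, the cytosolic isocitrate dehydrogenase, had signals of 3191 and 2661 and a difference of -0.18. The pentose phosphate enzymes Taldo1 and Tkt stood at -0.02 (6861 and 6446) and 0.04 (12676 and 12637), and Tkt at -0.01 under median centring.

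The regulators and quinone reductases ended the list. Keap1, the adaptor that targets NRF2 for destruction, was positive on all 3 probes, at 0.14 (2259 and 2350), 0.18 (757 and 791) and 0.06 (1083 and 1044). Median centring left the first 2 positive and turned the last to -0.07. Nfe2l2 itself lay close to background, at signals of 232 and 199, and its difference of -0.31 ranged from -0.39 to -0.18 under the other scalings. Among 818 genes of like brightness, 12.3% were as low or lower. Nqo1, the quinone reductase most used as a readout of NRF2, had signals of 1308 and 1232 and a difference of 0.01, and of -0.10 under median centring. Its second probe was not well above background on either array. Both probes of Nqo2, a related quinone reductase, were positive, at 0.13 (761 and 775) and 0.32 (558 and 636), the latter just short of the line. Osgin1, an NRF2-responsive growth inhibitor, was at 0.09 with dim signals of 227 and 229.

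**Figure D3:**
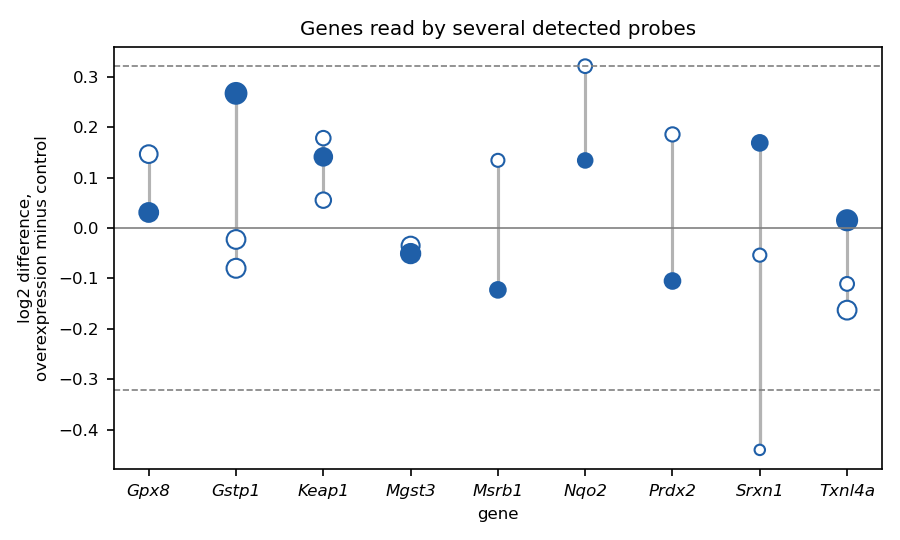
Log2 difference (overexpression minus control) of each probe detected on both arrays, for the 9 member genes with more than 1 such probe. Filled points are each gene's probe of highest mean signal, point area increases with signal, and dashed lines mark 0.32 and -0.32. Probes of Keap1, Nqo2, Gpx8 and Mgst3 share a sign, and those of the other 5 genes do not.

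The disagreement between probes sets a scale for these values. Of the 9 genes with several probes detected on both arrays, 4 had probes of 1 sign and 5 had probes of both signs. Within a gene the SD of the probes' differences, taken as a root mean square, was 0.16 for these 9 members and 0.15 for 999 genes of the whole array. This is a spread over probes, and no spread over samples was available. It exceeds the absolute difference of most members, whose median was 0.10. Across 6 scalings, 11 members stayed positive and 20 stayed negative by their brightest probe. The other 10 turned negative under median centring alone, and every other scaling gave the same 21 positive and 20 negative members. Median centring used the median of all 24613 probes, of which 35.8% (control) and 35.7% (overexpression) were detected. It left the median of all counted genes at -0.10 and placed each member lower, so negative members could not turn under it. The authors' values lay close to those without background correction, so the 6 scalings are not independent checks.

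**Figure D4:**
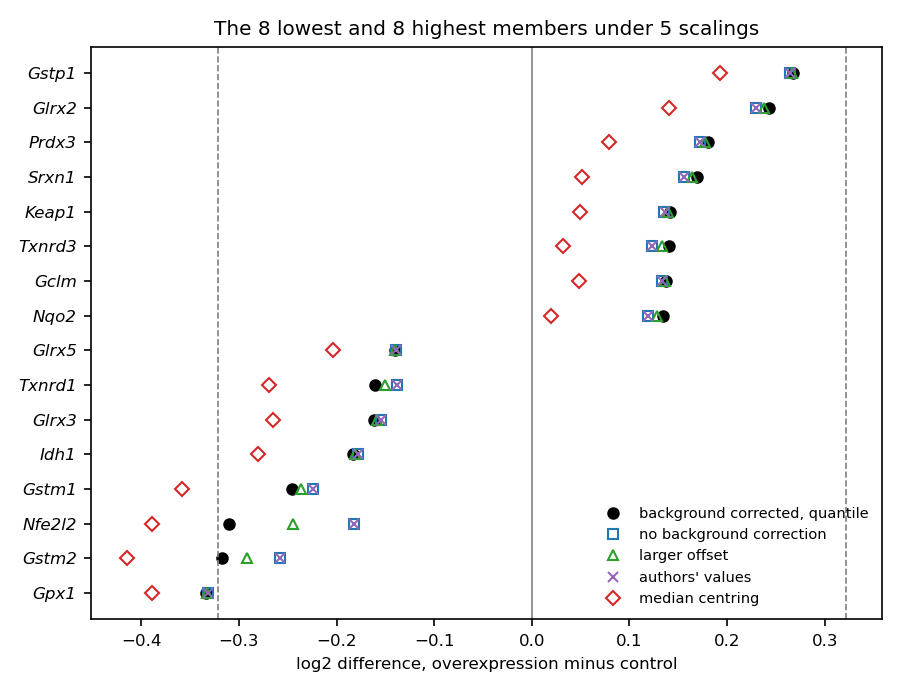
Log2 difference (overexpression minus control) of the 8 lowest and 8 highest members by their brightest probe, under 5 ways of scaling the signals. Dashed lines mark 0.32 and -0.32. Median centring places each gene lower than the other scalings do, and puts Gstm2, Gpx1, Nfe2l2 and Gstm1 below the lower line.

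The core of the antioxidant response element was looked for in the promoters to see whether genes that hold it behaved alike. The letters TGACNNNGC were searched on both strands of RefSeq windows (GRCm38.p6) from 250 bases before to 50 bases after each annotated start. They were present in 12.4% of all 32851 windows and in 7 of the 49 windows of counted members (14.3%). By gene, 7 of the 37 members with a window held a match (18.9%), against 13.99% of all 27025 genes with a window. Letters this short occur in many promoters, and a match is not a shown binding site. Sequence outside these windows was not searched, so a gene without a match may still hold an element elsewhere. The stretches below show 4 members with a match upstream of the start, chosen as a regulator, a peroxidase, a reductase and a glutathione synthesis gene. Each is written along the gene's strand, with the match in capitals (GCNNNGTCA where it lies on the opposite strand).
Txnrd1: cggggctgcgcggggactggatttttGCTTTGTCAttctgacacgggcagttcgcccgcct
Prdx1: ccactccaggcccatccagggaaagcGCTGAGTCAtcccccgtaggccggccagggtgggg
Gclm: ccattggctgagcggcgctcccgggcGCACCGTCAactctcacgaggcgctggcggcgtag
Nfe2l2: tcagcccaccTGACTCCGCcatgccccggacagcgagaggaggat

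These stretches lie at chr10:82859088-82859148 (plus strand) for Txnrd1, at chr4:116685440-116685500 (plus strand) for Prdx1, at chr3:122245397-122245457 (plus strand) for Gclm and at chr2:75704869-75704913 (minus strand) for Nfe2l2. The match begins 92 bases before the start in Txnrd1, 133 in Prdx1, 134 in Gclm and 240 in Nfe2l2. In Prdx1 the match overlaps the AP-1 letters TGACTCA read on the opposite strand. Differences of these 4 genes were -0.16, -0.06, 0.14 and -0.31. The other matches were in Gstm5, Sod1 and Srxn1. The 7 genes with a match had a median difference of -0.06, with 2 positive. The 30 without one in the window had a median of 0.02, with 16 positive. No direction was shared by the genes that hold these letters in the window.

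Lists of other genes of the same chemistry had medians near 0, and 3 of their genes passed the 0.32 line, Tmx1, Selenow and Sephs2. Over all 6702 counted genes, 2.7% were higher and 2.83% lower by that much. In lists this short, counts of 0 or 1 are near those shares and are no result about the lists. Of 16 counted genes known as further NRF2 targets or as heme and iron handlers, 0 passed the 0.32 line in either direction, and the median was 0.001. Hmox1, which breaks down heme and responds strongly to NRF2, had signals of 646 and 701 and a difference of 0.24, and Slc3a2, a subunit of the cystine transporter, stood at -0.18. Of 12 partners and regulators of NRF2, 0 passed, with a median of -0.02 and extremes at Brca1 (0.17) and the small Maf gene Maff (-0.17). Of 13 other thiol oxidoreductases 1 passed, Tmx1, a membrane protein of the endoplasmic reticulum, which was 1.44-fold lower at signals of 343 and 254. The highest there was Pdia5 at 0.25, and the median was 0.04.

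Among 14 counted selenoproteins and factors of selenoprotein synthesis outside the main group, 1 passed in each direction and the median was -0.01. Of all counted genes, 2.7% passed on the higher and 2.83% on the lower side. Sephs2, which makes the selenium donor for selenocysteine, had signals of 465 and 563 and a difference of 0.43, or 1.35-fold higher, with 0.32 to 0.40 under the other scalings. Selenow, a small muscle and brain selenoprotein, had signals of 1229 and 892 and a difference of -0.41, or 1.33-fold lower, with -0.52 to -0.37. Selenom, a thioredoxin-fold protein of the endoplasmic reticulum, was at -0.32 (325 and 266), while Selenok, another protein of that membrane, was at 0.10 (3950 and 4062). Selenom and Selenok were named after their values were seen. Set beside Gpx1 (-0.33), Txnrd1 (-0.16), Txnrd2 (0.10) and Txnrd3 (0.14), selenoprotein transcripts lay on both sides of 0.

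The remaining lists of this chemistry held no gene past the 0.32 line, which 2.7% (higher) and 2.83% (lower) of all counted genes passed. The median was -0.06 over 9 genes of glutathione turnover, with Ggct, which breaks down gamma-glutamyl peptides, at 0.29 and Chac1, which degrades glutathione, at -0.21. It was 0.04 over 9 further enzymes of NADPH supply and the pentose phosphate and folate paths, with H6pd at 0.14 and Rpe at -0.27. It was 0.003 over 3 counted genes of oxidant sources, with Poldip2, a partner of Nox4, at 0.25 and the NADPH oxidase Nox4 at -0.18. It was 0.0007 over 6 genes of metallothioneins and copper handling, with Mt1, a metal-binding protein induced by oxidants and metals, at 0.06 (36160 and 37168) and Slc31a1, a copper importer, at -0.06.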

How the data were processed

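Per the labels' protocols, total RNA was amplified to biotinylated cRNA and measured on single-colour bead arrays. The submitters' processing notes name BeadStudio, with no version. The deposited table holds, per the file headers, a non-normalized signal intensity and a detection p-value for 24613 probes on each of 2 arrays. The control signals are in a column named control, and the column named test was assigned to the one other sample, overexpression. A second table, of the authors' own values, covers 11090 probes with deposited signals on a log2 scale. Its columns hold the same sorted values, as quantile normalization gives, although no label states the scale or that step, and its control column correlated across probes with the log2 control signal at r = 0.99998.

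Background was removed with the nec function of limma 3.58.1 in R 4.3.3, which takes it from the detection p-values and adds an offset of 16. Quantile normalization and log2 followed. The steps were tested on simulated data. Differences of dim genes depend on the offset. Genes were named through the platform annotation, and all 59 member probes matched a mouse RefSeq gene by Entrez identifier. List symbols no longer current were matched through unambiguous RefSeq synonyms. Members, lists, folds and alternatives were chosen with earlier results of these data known. Named in full were the 8 highest and 8 lowest members and those with several probes, and of each other list the highest and lowest gene detected on both arrays. With 1 array per group no test was made, and the number of arrays limits precision. The 8 alternatives concern background correction (3), normalization, the authors' values, detection (2) and averaging of probes.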

Additional observations from a re-analysis of the deposited data

How the results depend on the processing

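Over the 8 alternatives, the count of members higher by a log2 difference of 0.32 or more stayed at 0, and that at 1.5-fold in either direction at 0. The count lower by that much was 1 except under median centring, where it was 4 (Gpx1, Gstm2, Gstm1 and Nfe2l2), a setting that moved the median of all genes to -0.10. The members' median stayed within -0.09 and 0.01, and was 0.005 over the 42 genes detected at a p-value under 0.05. Averaging the probes of a gene moved Gstm2 to -0.16, Gstp1 to 0.05 and Srxn1 to -0.11. It changed the sign of Srxn1, of Prdx2 (to 0.04), of Msrb1 (to 0.006) and of Txnl4a (to -0.09). Of all counted genes, 2.7% were past 0.32 on the higher side with background correction, 1.15% without it and 4.56% at the looser detection threshold, and 2.83%, 1.15% and 4.57% were lower. Movements under the spread between probes of a gene (0.15) were taken as no change. No paired analysis was possible because each group had 1 array. Leaving out a replicate was not possible for the same reason. Signals near the lowest detected signal (201 and 196) limit Nfe2l2, Osgin1 and the dimmest Srxn1 probe.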

Other observations

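Several families of this system have mitochondrial and cytosolic members encoded by different genes, and these were set side by side after their values had been seen. The glutaredoxins paired here are members of 1 family and not forms of 1 enzyme. Glrx3 and Glrx5 serve iron-sulfur cluster handling, so Glrx2 minus Glrx3 and Glrx5 minus Glrx set genes of unlike roles side by side. In 8 of 9 pairings the gene with a mitochondrial form had the higher log2 difference (overexpression minus control), with quantile normalization as well as with median centring. Median centring moves all genes of an array by the same amount, which cancels within a pairing, so the second count adds little to the first. Glrx2 minus Glrx3 was 0.40, Prdx3 minus Prdx2 0.29, Txnrd2 minus Txnrd1 0.26, Prdx3 minus Prdx1 0.24, Glrx2 minus Glrx 0.19, Sod2 minus Sod1 0.15, Idh2 minus Idh1 0.09 and Glrx5 minus Glrx3 0.02. The exception, Glrx5 minus Glrx, was -0.19. It and 5 of the other pairings were larger in size than the SD between probes of 1 gene (0.15). That SD is of single differences. A pairing takes 1 difference from another, so a like spread for pairings would be larger than 0.15. Several genes enter more than 1 pairing, and the second probe of Prdx2 stood at 0.19, as high as Prdx3 at 0.18. With 1 array per group these are values and no test.

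The peroxidase transcript Gpx1 and the transferase transcript Gstp1 were each at the edge of genes of like brightness, in opposite directions. They were picked as the lowest and the highest of the 41 members, so a place near the edge follows in part from that choice. For Gstp1 the other probes of the same gene did not follow, and for Gpx1 no second probe was at hand.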
